A study of Mus musculus with 48 samples.

Results

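Described here are 9 transcription factors of the enteroendocrine lineage, Neurog3, Neurod1, Insm1, Nkx2-2, Rfx6, Isl1, Pax4, Pax6 and Foxa2, in sorted mouse gut cells after bariatric surgery. They were listed by name among the 53465 genes of the count table for what they are known for. The rule used no measured value, but earlier results of these data were known when the list was drawn up. All 9 passed the filter on low counts that left 15126 genes for testing. The study asked whether the transcriptome of enteroendocrine cells differs after vertical sleeve gastrectomy (VSG). This operation removed 70% or more of the stomach by volume. NeuroD1-positive cells were sorted from 3 gut regions of 17 mice, and 48 libraries were sequenced. Each region had 16 libraries, 5 from sham-operated mice fed ad libitum (S_al), 5 from sham-operated mice held to the body weight of the VSG mice by restricted feeding (S_wm) and 6 from VSG mice.

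All mice were male C57BL6 animals of about 20 weeks that carried a Cre driven by Neurod1 and a Cre-dependent yellow fluorescent protein. All were on standard chow, were studied 6 weeks after surgery, and received 3 g/kg glucose by gavage after an overnight fast, about 15 min before tissue was taken. Sham mice had the abdomen opened and a suture placed on the stomach without constraint, all groups had a liquid diet around the time of surgery and analgesic and antibiotics after it, and VSG mice alone received weekly vitamin B12 injections. The duodenum was the top 5 cm of the small intestine, the ileum its bottom 15 cm, and the colon included the rectum. The reporter marks any cell that has at some time expressed Neurod1, so the sort is not restricted to cells that still express it. Whether the transgene carries Neurod1 sequence that would be counted with the gene is not given in the sources used here.

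Enteroendocrine cells are the hormone-secreting cells of the gut epithelium and are renewed throughout life from crypt stem cells. Neurog3 is switched on briefly in the secretory progenitors that become endocrine. It is followed by Neurod1 and Insm1 and then by factors such as Nkx2-2, Rfx6, Isl1, Pax4 and Pax6. These bear on which hormone a cell makes, and several of them remain in maturing cells. Foxa2 is a forkhead factor of endoderm that is also present in other epithelial cells.

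Neurog3, Neurod1 and their relatives are basic helix-loop-helix proteins that bind short E-box motifs. The promoters of the 3 factors that fell most from duodenum to colon, and of Neurod1, are shown because all of them were lower in colon. Each is the 250 bases before the transcription start in RefSeq (GRCm38.p6), 5′ to 3′ on the gene's strand, with E-boxes in capitals. The E-boxes searched were CAGCTG, which reads the same on both strands, and on either strand the motif CAGATG, written CATCTG when it lies on the other strand. The windows are chr13:116309689-116309938 on the minus strand for Isl1, chr10:62132840-62133089 on the plus strand for Neurog3, chr10:51685268-51685517 on the plus strand for Rfx6 and chr2:79456637-79456886 on the minus strand for Neurod1.
Isl1: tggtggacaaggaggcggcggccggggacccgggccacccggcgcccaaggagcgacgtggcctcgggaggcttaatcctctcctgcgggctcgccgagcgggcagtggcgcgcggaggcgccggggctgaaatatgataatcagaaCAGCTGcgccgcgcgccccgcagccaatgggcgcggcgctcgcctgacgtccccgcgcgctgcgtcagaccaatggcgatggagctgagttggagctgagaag
Neurog3: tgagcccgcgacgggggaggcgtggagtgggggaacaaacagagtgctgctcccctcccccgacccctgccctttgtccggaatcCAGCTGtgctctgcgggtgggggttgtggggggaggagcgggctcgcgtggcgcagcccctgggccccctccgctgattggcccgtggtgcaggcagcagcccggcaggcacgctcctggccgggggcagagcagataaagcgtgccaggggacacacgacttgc
Rfx6: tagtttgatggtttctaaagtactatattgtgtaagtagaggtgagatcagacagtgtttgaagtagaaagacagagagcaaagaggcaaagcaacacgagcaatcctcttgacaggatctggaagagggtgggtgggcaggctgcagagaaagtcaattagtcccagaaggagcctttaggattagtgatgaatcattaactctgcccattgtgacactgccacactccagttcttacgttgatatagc
Neurod1: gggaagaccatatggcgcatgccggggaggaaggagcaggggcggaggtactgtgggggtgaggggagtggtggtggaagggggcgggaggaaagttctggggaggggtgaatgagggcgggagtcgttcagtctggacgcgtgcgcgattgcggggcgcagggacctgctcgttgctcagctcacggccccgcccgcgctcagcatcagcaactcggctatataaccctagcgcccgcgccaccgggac
The Isl1 window held 1 CAGCTG that began at position -103 from the start, the Neurog3 window held 1 at position -165, and the Rfx6 and Neurod1 windows held none of these letters. Nkx2-2 had 1 CATCTG in its window, and the windows found for Pax6 and Foxa2 had none. Among 32851 RefSeq promoter windows of the same length, 14.4% held CAGATG on either strand, 13.001% held CAGCTG and 25.5% held at least 1 of them. No promoter entry was matched for Insm1 and Pax4. For Rfx6, Neurod1 and Nkx2-2 the RefSeq start lies inside the gene span of the annotation used for the counts. The same holds for some starts of Pax6 and Foxa2. The whole Rfx6 window and the part of the Neurod1 window up to chr2:79456751 lie within that span. The Isl1 window overlaps its gene span only at chr13:116309689.

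Library totals ran from 4648651 to 17182463 counts, with a median of 6713018. Enteroendocrine markers were abundant but not equal between regions. Chga, the granule protein chromogranin A, had a median of 17618 CPM (counts per megaread of library size, after TMM scaling) in duodenum, 17256 CPM in ileum and 19905 CPM in colon. In the same order, Chgb had medians of 35137, 24086 and 26233 CPM, Scg2 of 1102, 374 and 32.7 CPM and Pcsk1 of 1010, 768 and 114 CPM. The sum of 11 enteroendocrine markers had medians of 82950, 53796 and 50037 CPM. Markers of other cells were also present: the summed level of 7 goblet cell genes had a median of 3718 CPM in duodenum, 4037 CPM in ileum and 9361 CPM in colon, 6 Paneth cell genes had medians of 275, 2419 and 17.3 CPM, and 9 enterocyte genes had medians of 6446, 7807 and 409 CPM. The medians of 7 crypt genes, such as Lgr5 and Mki67, were 1134, 2028 and 121 CPM, and those of 6 immune genes 124, 898 and 15.9 CPM. The defining islet genes Ins1 and Ins2 and acinar genes Prss2 and Pnlip had medians under 1 CPM in every region, while the whole lists of 6 islet genes, which include Iapp and Ppy, and of 6 acinar genes summed to medians of at most 107.9 and 50.6 CPM, both highest in colon. Regional identity followed the tissue labels: 5 genes of the proximal gut, among them Pdx1 and Gip, summed to 9275 to 29619 CPM in duodenum, 775 to 8156 CPM in ileum and 8.18 to 101 CPM in colon, ranges that did not overlap. For the S_al mouse 12, a second label of its ileum and colon libraries exchanged these regions, and the tissue label was used.

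The duodenum library of S_wm mouse 27 stood apart. It held 142 CPM of Neurod1, against 467 to 956 CPM in the other duodenum libraries, and was below all of them for each of the 9 factors except Neurog3. Its 16-gene secretory panel, which lists granule and exocytosis genes such as Chga, Cpe and Snap25, summed to 12311 CPM against 39663 to 75337 CPM elsewhere in duodenum, while its enterocyte genes summed to 43013 CPM against 5021 to 13626 CPM. The main results were therefore computed with and without it. In these bulk libraries, fewer cells of a type and less RNA per cell cannot be told apart.

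The 9 factors differed widely in level. On a scale of CPM per kilobase of merged exon, Neurod1 had the highest median in every region, with 245 in duodenum, 141 in ileum and 89.2 in colon, and stood at the 99.5th percentile of tested genes in duodenum. Insm1, a zinc-finger repressor of progenitor genes, came next with 66.7, 63.1 and 73.5 CPM per kilobase. Neurog3 was lowest in every region, with 2.13, 0.568 and 0.179 CPM per kilobase.

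Between these extremes, the order changed along the gut. In duodenum, Nkx2-2 (48.6 CPM per kilobase), Rfx6 (36.6), Isl1 (28.6), Foxa2 (22.9), Pax4 (13.7) and Pax6 (13.5) followed in that order. In colon, Pax4 stood in the third place with a median of 20.6 CPM per kilobase, and Isl1 in the eighth with 2.52. Pax6 is divided by the 11694 bases of its merged exons, the longest of the 9, which lowers its place on this scale.

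**Figure D1:**
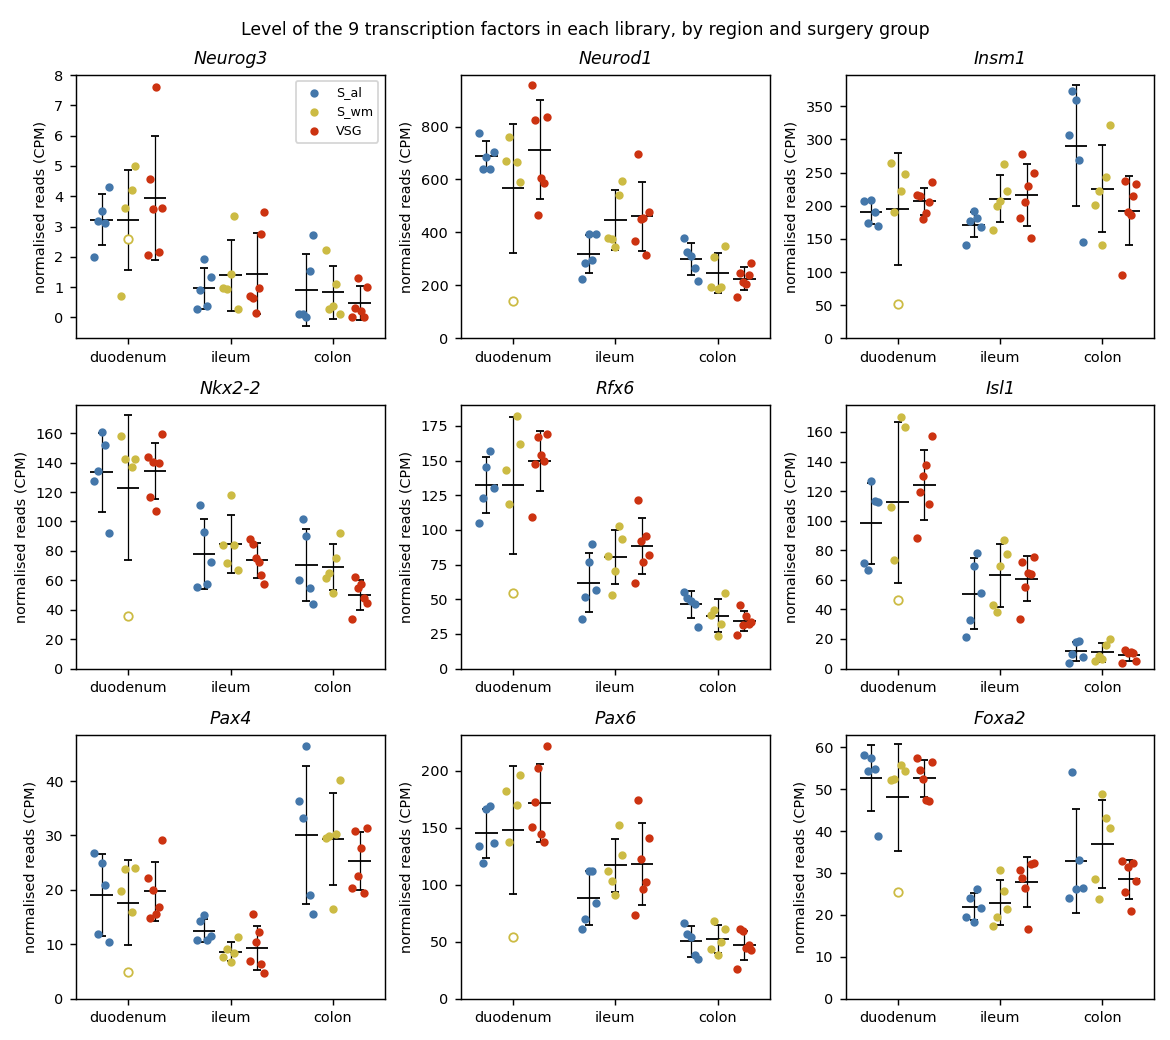
Level of each transcription factor in CPM (y axis, linear) by region (x axis) and surgery group (colour), with 1 point per library, the mean as a black line and the SD as a bar. The open circle is the duodenum library of S_wm mouse 27. Isl1 libraries of the colon, at most 19.7 CPM, lie below all those of the other regions, whereas the 3 surgery groups overlap within each region for every factor.

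Region separated most of the 9 factors. Between duodenum and ileum, 8 of 9 were lower in ileum and none was higher. Between duodenum and colon, 7 were lower in colon and 1, Pax4, was higher. Between ileum and colon, 5 were lower in colon and 2, Pax4 and Foxa2, were higher. Insm1 passed the threshold in no region contrast. Calls are edgeR quasi-likelihood tests with Benjamini-Hochberg adjusted p under 0.05 over all 15126 genes, averaged over the 3 surgery groups.

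Many other genes also differed between regions. Of all genes tested, 33.8% were called between ileum and duodenum (16.6% lower and 17.2% higher in ileum), 55% between colon and duodenum (28.3% lower and 26.8% higher in colon) and 49.2% between colon and ileum (25.4% lower and 23.8% higher in colon). The median log2 fold change over the 9 factors was -0.86 for ileum against duodenum, -1.35 for colon against duodenum and -0.66 for colon against ileum, where the medians over all genes were 0.0045, -0.015 and -0.011. Without the duodenum library of mouse 27, the counts of called factors were 8, 8 and 7, as with it (5921, 8714 and 7742 of all genes).

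The share of genes called in the ileum against duodenum contrast was smaller with the library index as a covariate. The index is a set of 4 barcodes (D501 to D504) that partly followed region. In duodenum 12 libraries carried D502 and 4 carried D501, in ileum 7 carried D501, 8 D503 and 1 D504, and in colon 1 carried D501, 4 D503 and 11 D504. With the index as a covariate, 1 of the 9 factors, Foxa2, remained called between ileum and duodenum, both with and without the library of mouse 27, and the other 7 were not. Calls over all genes in this contrast also fell, from 5110 to 1713, and further without that library. The same fit called 6 of the 9 for colon against duodenum (4236 of all genes, against 8322 without the index), and also 6 for colon against ileum (5720, against 7436). For colon against duodenum, Neurod1, Nkx2-2 and Foxa2 were no longer called in it and Insm1 was (0.86, edgeR adjusted p = 0.044). When the library of mouse 27 was also left out, 7 of the 9 were called in that contrast (2730 of all genes). Neurod1, Nkx2-2 and Foxa2 were called again, Insm1 was not (0.29, adjusted p = 0.61) and Neurog3 was no longer called (adjusted p = 0.065). No ileum or colon library carried D502. The Neurod1 SE for ileum against duodenum was 0.299 with the index, wider than in the main fit. In that contrast the index fit gave Neurog3 -2.20, Neurod1 -0.086, Nkx2-2 -0.065, Rfx6 -0.20, Isl1 -0.37, Pax4 0.055 and Pax6 0.23. Without the library of mouse 27 these were -2.28, -0.75, -0.55, -0.55, -0.67, -0.39 and -0.17. A lost call there does not show that a difference is absent. The part of the index in the regional values was not tested further.

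Within index D501, 4 duodenum and 7 ileum libraries could be compared directly. Estimates were below 0 for 7 of the 9 factors, and 2 of 9 exact two-sided permutation tests gave p under 0.05 before adjustment, those of Neurog3 (p = 0.0030) and Foxa2 (p = 0.012). Without the library of mouse 27, with 3 duodenum libraries left, 8 estimates were below 0, and Neurog3, Nkx2-2 and Foxa2 (each exact p = 0.0083, the smallest this design allows) and Neurod1 (exact p = 0.017) were under 0.05. Only 1 colon library shared an index with duodenum, so that contrast has no value within an index. In D503 and D504 together there were 15 colon and 9 ileum libraries. With the difference estimated and the regions permuted separately inside each index (5940 arrangements), 4 factors were lower in colon at an unadjusted p under 0.05, namely Isl1 (-2.46, exact p = 0.00017), Pax6 (-1.12, exact p = 0.00034), Rfx6 (-0.85, exact p = 0.0047) and Neurod1 (-0.52, exact p = 0.033). Pax4 (1.46, exact p = 0.00017) and Foxa2 (0.37, exact p = 0.045) were higher, and the p of Isl1 and Pax4 is the smallest this design allows. After Benjamini-Hochberg adjustment over the 9 factors, Neurog3 alone stayed under 0.05 in D501 (Foxa2 adjusted exact p = 0.055). Without the library of mouse 27 all 4 stayed. In D503 and D504, Isl1, Pax6 and Rfx6 stayed lower and Pax4 higher, whereas Neurod1 (adjusted exact p = 0.060) and Foxa2 (adjusted exact p = 0.067) did not pass. Libraries of 1 mouse were not paired in these tests, which were chosen after seeing the data. They covered the 9 factors only, so no share of all genes stands beside these counts.

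**Figure D2:**
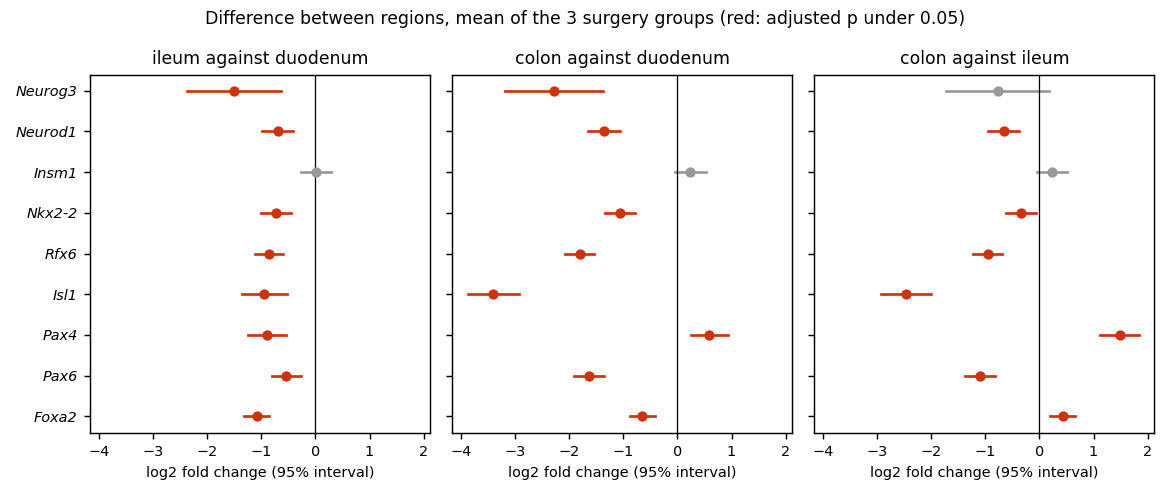
Log2 fold change (x axis) of each factor (y axis) in the 3 region contrasts, with 95% intervals, red where the adjusted p was under 0.05 and grey elsewhere. Isl1 shows the lowest value, -3.40 in colon against duodenum, and Pax4 the highest, 1.48 in colon against ileum.

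Neurog3, the trigger of endocrine fate, lies at chr10:62133090-62134763 on the plus strand (ENSMUSG00000044312). It was counted from few reads. Duodenum libraries held 0.701, 3.56 and 7.63 CPM (lowest, median and highest), ileum libraries 0.139, 0.951 and 3.47 CPM and colon libraries 0, 0.300 and 2.72 CPM. All reads of a region summed to 473 in duodenum, 118 in ileum and 72 in colon, and 3 colon libraries held none. The ranges of the 3 regions overlapped, though 11 of 16 duodenum libraries were above every colon library.

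The fitted level of Neurog3 was 2.83-fold lower in ileum than in duodenum (log2 fold change -1.50 ± 0.432 SE, adjusted p = 0.0054, edgeR) and 4.84-fold lower in colon (-2.27 ± 0.451, adjusted p = 2.7e-05). It was lower in ileum in 13 of 15 mice and lower in colon in 14 of 15. Colon and ileum differed by -0.77 (95% interval -1.72 to 0.17), which did not pass the test. These values are coarse, since 12 ileum and 13 colon libraries had under 10 Neurog3 reads. Of its exon bases, 16.3% are shared with Fam241b on the opposite strand, and whether counting used strand is not given in the sources used here.

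Neurod1, the helix-loop-helix factor used to drive the Cre that switches on the reporter, lies at chr2:79452521-79456751 on the minus strand (ENSMUSG00000034701). It held 142, 669 and 956 CPM in duodenum (lowest, median, highest), 225, 385 and 697 CPM in ileum and 158, 244 and 380 CPM in colon. Without mouse 27 the lowest duodenum value was 467 CPM, above every colon library, while duodenum and ileum still overlapped.

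Neurod1 was 1.62-fold lower in ileum than in duodenum (log2 fold change -0.70 ± 0.145 SE, edgeR adjusted p = 0.00016) and 2.56-fold lower in colon than in duodenum (-1.35 ± 0.147, adjusted p = 4.9e-11). It was 1.58-fold lower in colon than in ileum (-0.66 ± 0.145, adjusted p = 0.00016). With the index as a covariate, the colon against duodenum value was -0.57 (adjusted p = 0.23), and -1.22 (adjusted p = 0.0027) when the library of mouse 27 was also left out. Cerkl on the same strand shares 7.37% of the Neurod1 exon bases.

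Insm1, a zinc-finger factor of endocrine progenitors, was the exception to the regional pattern. The gene lies at chr2:146221921-146225020 on the plus strand (ENSMUSG00000068154). It held 52.3, 207 and 264 CPM in duodenum, 140, 195 and 278 CPM in ileum and 95.7, 228 and 373 CPM in colon, so that the regions overlapped, with 5 of 16 colon libraries above every duodenum library and 4 above every ileum library.

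The log2 fold change of Insm1 was 0.0089 for ileum against duodenum (95% interval -0.27 to 0.29), 0.24 for colon against duodenum (-0.041 to 0.52, edgeR adjusted p = 0.14) and 0.23 for colon against ileum (-0.051 to 0.51, adjusted p = 0.17). It was higher in colon than in duodenum in 10 of 15 mice and in colon than in ileum in 8 of 16. Region accounted for 4.33% of the variance of its log2 CPM over the 48 libraries, against 50.2% to 85.5% for the other 8 factors. The intervals leave differences of up to 0.52 on the log2 scale possible.

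Nkx2-2, a homeobox factor of several enteroendocrine types, lies at chr2:147177546-147194243 on the minus strand (ENSMUSG00000027434). Its level was 35.7, 140 and 161 CPM in duodenum, 55.4, 73.8 and 118 CPM in ileum and 33.5, 58.9 and 102 CPM in colon. In duodenum 12 libraries were above every ileum library and 14 above every colon library, whereas ileum and colon overlapped widely.

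Nkx2-2 was 1.65-fold lower in ileum than in duodenum (log2 fold change -0.73 ± 0.137 SE, edgeR adjusted p = 4.1e-05) and 2.08-fold lower in colon than in duodenum (-1.06 ± 0.138, adjusted p = 8.1e-09). The smaller step from ileum to colon, -0.33 ± 0.138 (adjusted p = 0.042), was lost with DESeq2 size factors (adjusted p = 0.055), without a filter on low counts (adjusted p = 0.11) and in 10 of the 17 fits that left out a mouse. Those were the fits without mouse 11, 16, 18, 21, 22, 27, 28, 29, 30 or 32, with values between -0.35 and -0.24. The antisense gene Nkx2-2os shares 9.67% of its exon bases.

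Rfx6, a winged-helix factor needed for endocrine differentiation in gut and pancreas, lies at chr10:51677756-51730432 on the plus strand (ENSMUSG00000019900). It held 54.3, 147 and 182 CPM in duodenum, 35.6, 79.3 and 121 CPM in ileum and 23.6, 38.2 and 55.4 CPM in colon. The medians stepped down at each region, and apart from the library of mouse 27 all duodenum libraries were above all colon libraries.

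Rfx6 was 1.81-fold lower in ileum than in duodenum (log2 fold change -0.86 ± 0.131 SE, edgeR adjusted p = 8.9e-07), 3.50-fold lower in colon than in duodenum (-1.81 ± 0.135, adjusted p = 4.7e-16) and 1.93-fold lower in colon than in ileum (-0.95 ± 0.133, adjusted p = 5.0e-08). It was lower in colon than in duodenum in 15 of 15 mice. With the index as a covariate the colon against duodenum value was -1.02 and stayed called (adjusted p = 0.0049).

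Isl1, a LIM-homeobox factor, showed the widest regional range of the 9. The gene lies at chr13:116298281-116309689 on the minus strand (ENSMUSG00000042258). Its level was 46.2, 113 and 170 CPM in duodenum, 21.4, 64.4 and 86.6 CPM in ileum and 3.65, 9.98 and 19.7 CPM in colon. Every colon library was below every library of the other regions, the library of mouse 27 included.

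Isl1 was 10.6-fold lower in colon than in duodenum (log2 fold change -3.40 ± 0.233 SE, edgeR adjusted p = 1.7e-16) and 5.50-fold lower in colon than in ileum (-2.46 ± 0.228, adjusted p = 2.6e-12). The step from duodenum to ileum was smaller, 1.92-fold lower (-0.94 ± 0.208, adjusted p = 0.00041). With the index as a covariate the colon against duodenum difference stayed called. Region accounted for 85.5% of its variance, the highest share of the 9. In the order of its 9 group means, 1 of 8 steps had mean ± SD ranges that were apart. It ran from S_al ileum (50.6 ± 23.9 CPM, SD, n = 5) to S_al colon (11.6 ± 6.56 CPM, n = 5). For the other 8 factors no neighbouring groups were apart in this way. The share of all tested genes with such a step was not computed.

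Pax4, a paired-homeobox repressor that bears on endocrine subtype in gut and islet, ran the other way in colon. The gene lies at chr6:28442334-28449353 on the minus strand (ENSMUSG00000029706). It held 4.91, 19.8 and 29.2 CPM in duodenum, 4.71, 10.6 and 15.5 CPM in ileum and 15.6, 29.7 and 46.4 CPM in colon. All 16 colon libraries were above all 16 ileum libraries, and colon was above ileum in 16 of 16 mice.

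Pax4 was 2.79-fold higher in colon than in ileum (log2 fold change 1.48 ± 0.178 SE, edgeR adjusted p = 1.1e-09) and 1.503-fold higher in colon than in duodenum (0.59 ± 0.171, adjusted p = 0.0031), with 14 of 15 mice higher in colon. In ileum it was 1.86-fold lower than in duodenum (-0.89 ± 0.177, adjusted p = 7.5e-05), a value that turned to 0.055 (adjusted p = 0.95) with the index as a covariate and to -0.39 (adjusted p = 0.69) when the library of mouse 27 was also left out.

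Pax6, a paired-homeobox factor like Pax4 and an activator of several hormone genes, lies at chr2:105668900-105697364 on the plus strand (ENSMUSG00000027168). It moved opposite to Pax4 in colon. Its level was 54.5, 158 and 222 CPM in duodenum, 61.1, 107.9 and 174 CPM in ileum and 26.2, 48.2 and 67.8 CPM in colon. In ileum 15 of 16 libraries were above every colon library, while duodenum and ileum overlapped.

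Pax6 was 3.10-fold lower in colon than in duodenum (log2 fold change -1.63 ± 0.140 SE, edgeR adjusted p = 5.3e-14) and 2.14-fold lower in colon than in ileum (-1.10 ± 0.139, adjusted p = 4.5e-09). Its step from duodenum to ileum, -0.53 ± 0.136 (adjusted p = 0.0018), was the smallest of the 8 called there, and became 0.23 (adjusted p = 0.64) with the index as a covariate, -0.17 (adjusted p = 0.86) with the index and without the library of mouse 27, and -0.36 (adjusted p = 0.098) when libraries were scaled to the secretory panel.

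Foxa2, the forkhead factor, was lowest in ileum. The gene lies at chr2:148042877-148046969 on the minus strand (ENSMUSG00000037025). It held 25.4, 54.3 and 58.0 CPM in duodenum, 16.6, 24.8 and 32.5 CPM in ileum and 20.97, 29.9 and 54.1 CPM in colon. Apart from mouse 27, every duodenum library was above every ileum library.

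Foxa2 was 2.11-fold lower in ileum than in duodenum (log2 fold change -1.08 ± 0.115 SE, edgeR adjusted p = 1.2e-10) and was the 1 factor that kept this call with the index as a covariate (-0.88, adjusted p = 0.0028). In colon it was 1.57-fold lower than in duodenum (-0.65 ± 0.113, adjusted p = 3.2e-06) and 1.35-fold higher than in ileum (0.43 ± 0.115, adjusted p = 0.0016), and was above ileum in 14 of 16 mice. The rise from ileum to colon was 0.33 (adjusted p = 0.19) with secretory panel scaling and 0.34 (adjusted p = 0.065) with the index as a covariate.

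Other markers moved with region beside these values. The 16 genes of the secretory panel were themselves lower in 7 cases and higher in 0 for ileum against duodenum, with a median log2 fold change of -0.31, and lower in 9 and higher in 3 for colon against duodenum, with a median of -0.39. Scaled to the sum of this panel, 6, 8 and 6 of the 9 factors passed for ileum against duodenum, colon against duodenum and colon against ileum (2128, 5476 and 4761 of all genes), and this scaling moved the median of all genes by -0.14 in the last contrast. Goblet, Paneth, enterocyte, crypt and immune markers differed between regions as given above, and their part in the regional values of the 9 factors was not tested.

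A ratio of counts within a library does not depend on scaling. Neurog3, the early factor, was therefore set against Neurod1, the factor that follows it. The sort used the Neurod1 reporter, so cells that had not yet expressed Neurod1 were left out. The ratio is one of reads and does not count early against later cells. Neurog3 reads were scarcer relative to Neurod1 in colon than in duodenum. Summed over a region, there were 197 Neurod1 reads per Neurog3 read in duodenum, 378 in ileum and 384 in colon. Per library, the median log2 ratio was -7.61 in duodenum (range -9.78 to -5.73), -8.51 in ileum (-11.1 to -6.79) and -9.39 in colon (-12.1 to -6.26). The ranges overlapped and were widest in colon, where Neurog3 counts were lowest.

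Within the 15 mice with all 3 regions, the log2 ratio was lower in colon than in duodenum by a mean difference of -1.68 (SD 2.09, lower in 13 of 15 mice, exact two-sided sign-flip permutation p = 0.0099, adjusted p = 0.030 over 3 comparisons). Ileum against duodenum gave -0.98 (SD 1.70, lower in 11 of 15, exact p = 0.041, adjusted p = 0.061) and colon against ileum -0.70 (SD 2.24, lower in 11 of 15, exact p = 0.25). The call for colon against duodenum was close to the threshold. It was lost with a pseudocount of 1 in place of 0.5 (-1.33, adjusted p = 0.053) and in 8 of the 15 tests that left out a mouse, those without mouse 11, 12, 13, 19, 21, 25, 27 or 31, with values between -1.66 and -1.48. The highest duodenum ratio was that of mouse 27, whose Neurod1 level was low.

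**Figure D3:**
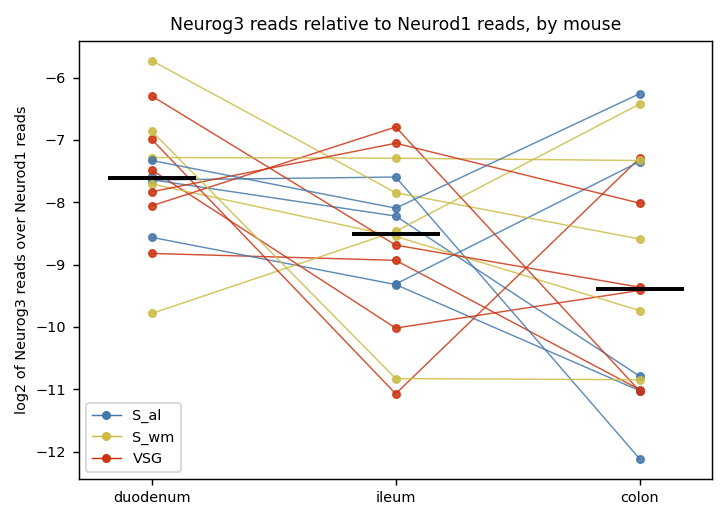
Log2 of Neurog3 reads over Neurod1 reads (y axis, pseudocount 0.5 on each) in each region (x axis), with 1 line per mouse coloured by surgery group and the median of 16 libraries as a black bar. The medians step from -7.61 in duodenum to -9.39 in colon, and single mice scatter over several log2 units.

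Mice of 1 region also differed among themselves, and several of the 9 factors rose and fell together. Correlations were computed over the 16 libraries of a region after the surgery group means were removed, for 36 pairs in each of 3 regions, with 100000 permutations and Benjamini-Hochberg adjustment over all of these tests. In colon 14 pairs passed, in duodenum 12 and in ileum 7, all positive. Libraries share depth and cell make-up across all genes, so such values describe joint variation and no more.

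In colon, Insm1 and Nkx2-2 varied most closely (Pearson r = 0.85, adjusted permutation p = 0.0036, Spearman rho = 0.85, adjusted p = 0.010), and Neurod1, Insm1, Nkx2-2, Rfx6, Pax4 and Pax6 formed 14 of their 15 possible pairs. Isl1, Foxa2 and Neurog3 were in none of them. The r of Isl1 with Rfx6 was 0.36 (adjusted permutation p = 0.37). With both taken as ratios to the summed secretory panel it was 0.79 (adjusted permutation p = 0.010). Isl1 was low in colon, and whether its level bears on this was not tested. In ileum, Rfx6 and Isl1 were closest (r = 0.86, adjusted p = 0.0067, rho = 0.82, adjusted p = 0.011), and r was 0.81 without the 2 libraries farthest from the median of Rfx6.

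In duodenum, 12 pairs passed with mouse 27 and 3 without it, namely Rfx6 with Isl1 (r = 0.88, adjusted permutation p = 0.0067), Isl1 with Pax6 (r = 0.69, adjusted p = 0.032) and Pax4 with Foxa2 (r = 0.67, adjusted p = 0.044). Insm1 with Pax6 and Rfx6 with Pax6 passed in all 3 regions over all libraries. In duodenum without mouse 27 their r was 0.50 (adjusted p = 0.21) and 0.64 (adjusted p = 0.072). Neurog3 was in no pair that passed in any region on the log2 CPM scale. With each factor taken as a ratio to the summed secretory panel, 17 pairs passed in duodenum, 10 in ileum and 20 in colon. Neurog3 then passed in duodenum with Rfx6 (r = 0.73, adjusted permutation p = 0.013), Isl1 (0.70, adjusted p = 0.021) and Foxa2 (0.73, adjusted p = 0.043). Isl1 and Foxa2 joined pairs in colon. These ratios share a divisor, and its part was not tested. In duodenum they include the library of mouse 27, and no values of these ratios without it are given. The panel of that library summed to 12311 CPM, against 39663 to 75337 CPM elsewhere in duodenum. Its Neurog3 level of 2.60 CPM lay within the range of the others. The part of this library in the 17 pairs was not tested.

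**Figure D4:**
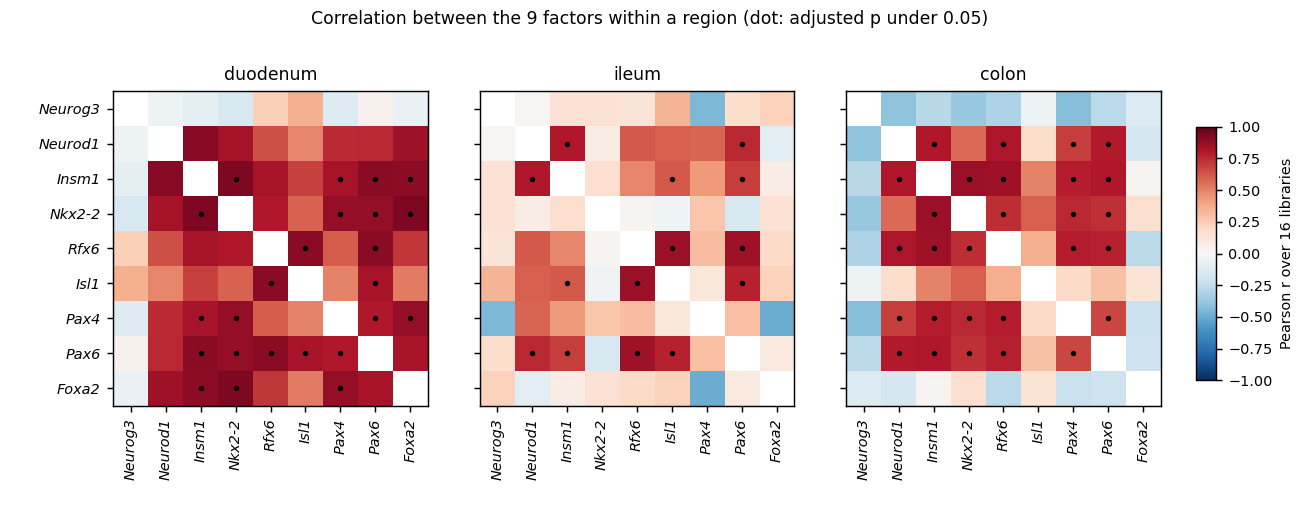
Pearson r between each pair of factors (rows and columns) over the 16 libraries of each region after surgery group means were removed, on a colour scale from -1 to 1, with a dot where the adjusted permutation p was under 0.05. The 12 dots in duodenum fall to 3 without the library of mouse 27, and the Neurog3 row holds none in any region.

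The genes outside the 9 whose levels followed each factor most closely were taken over all 48 libraries, as deviations of log2 CPM from the 9 group means among 13939 genes, and are given with no test. Neurod1 was closest to Hcn4, a pacemaker channel gene (r = 0.90 over 48 libraries, 0.84 without the library of mouse 27), then Slc18a1, a vesicular monoamine transporter, and Celf3. Isl1 was closest to Sst, which encodes somatostatin (r = 0.83, 0.82 without it), then Scgn and 1700086L19Rik. Rfx6 was closest to Pex5l (r = 0.86, 0.81 without it), followed by Cpe, the carboxypeptidase that processes prohormones, and Stx1a, a syntaxin of exocytosis.

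For Insm1 these were Maged1 (r = 0.92, 0.84 without the library of mouse 27), Sez6l2 and Camk2b, for Pax6 Pclo (0.88 and 0.81), Camk2b and Cadps, for Nkx2-2 Rph3al (0.86 and 0.76), Rimbp2 and Tmed8, and for Pax4 Celf3 (0.85 and 0.78), Rgs7 and Pkdcc. Foxa2 had weaker followers, of which Slain1 (0.70 and 0.60), Smyd4 and Dnajc18 came first. Neurog3 had the weakest, Rnpc3 (0.57 and 0.57), Impdh2 and Usp40. Without the library of mouse 27 the order held for Insm1, Rfx6, Isl1, Pax4 and Pax6 and changed for the others. Slc18a1 fell to place 7 for Neurod1, Rph3al to 2 for Nkx2-2 and Slain1 to 4 for Foxa2. Impdh2 rose to place 1 for Neurog3.

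Surgery moved none of the 9 factors past the threshold. The question here was whether VSG changes the factors that make and keep enteroendocrine cells, relative to sham-operated mice at free or matched weight. edgeR called 0 of 9 in the 3 contrasts averaged over regions, in the 9 contrasts within a region and in the joint test of interaction with region, and DESeq2 and limma voom, the latter with a random mouse term, also called 0 in each. Of all genes tested, edgeR called 0% for VSG against S_al, 0.245% for VSG against S_wm and 0.0529% for S_wm against S_al in the averaged contrasts, and 0% for the interaction. Within a region, VSG against S_wm reached 0.225% in duodenum (34 genes, and 0 without the library of mouse 27), 0.0463% in ileum and 0.0595% in colon, S_wm against S_al 0.0132% in colon, and the other 5 contrasts 0%. DESeq2 called more genes, 26 for VSG against S_al, 102 for VSG against S_wm and 13 for S_wm against S_al in the averaged contrasts. It called 10 for the interaction and 216 for VSG against S_wm in duodenum. For limma voom the averaged contrasts gave 0, 9 and 4 genes and the interaction 0. At an unadjusted p under 0.05, edgeR gave 0 of the 9 in the averaged contrasts and in the interaction, and 4 values within a region. These contrasts share their sham and VSG libraries and are not independent of each other.

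Averaged over regions, the largest difference between VSG and S_al in either direction among the 9 was that of Pax4, -0.20 (95% interval -0.54 to 0.15), and Pax6 had the lowest p (0.19, interval -0.082 to 0.46, unadjusted p = 0.17, edgeR adjusted p = 0.996). Against S_wm, Nkx2-2 had the lowest p (-0.18, interval -0.45 to 0.095, adjusted p = 0.72), and between the sham groups Pax4 (-0.22, interval -0.58 to 0.14, adjusted p = 0.87). For the 8 factors other than Neurog3, the intervals of all 3 averaged contrasts lay between -0.58 and 0.60 on the log2 scale. For Neurog3, which had few reads, they ran from -1.01 to 1.12, so differences of Neurog3 within its intervals were not excluded.

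**Figure D5:**
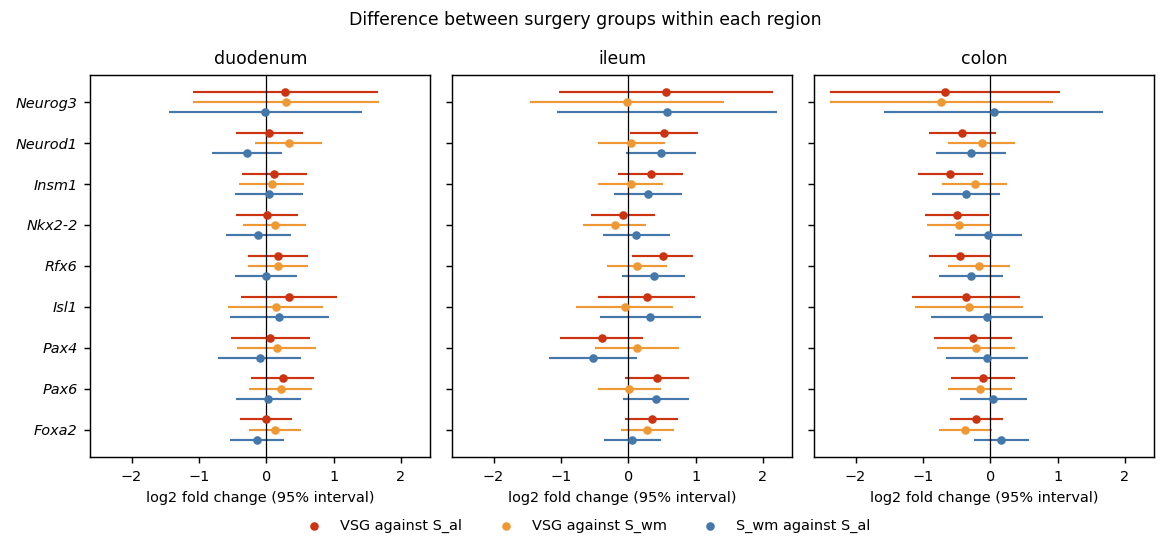
Log2 fold change (x axis) between surgery groups of each factor (y axis) within each region, with 95% intervals, coloured by contrast. None passed the adjusted threshold. In colon the estimates of VSG against both sham groups lie below 0 for all 9 factors. In duodenum 8 lie above 0 against S_al and 9 against S_wm.

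The 4 values within a region with an unadjusted p under 0.05 were all for VSG against S_al, where 932 of all genes were under it in ileum and 950 in colon. In ileum these were Rfx6 and Neurod1, both higher after VSG. Rfx6 held 35.6, 51.9, 56.6, 76.5 and 89.6 CPM in the 5 S_al libraries and 61.6, 86.7 and 121 CPM (lowest, median, highest) in the 6 VSG libraries, which overlap. The difference was 0.51 (95% interval 0.058 to 0.97, unadjusted p = 0.028, edgeR adjusted p = 0.77).

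Neurod1 in ileum held 225, 286, 297, 393 and 393 CPM in S_al and 314, 452 and 697 CPM in VSG, again overlapping, with a difference of 0.53 (interval 0.031 to 1.03, unadjusted p = 0.038, adjusted p = 0.79, edgeR). The S_wm ileum libraries held 344, 375, 378, 540 and 595 CPM of Neurod1, within the VSG range, and VSG against S_wm gave 0.045 (interval -0.45 to 0.54). Scaled to the secretory panel, the VSG against S_al differences were 0.21 for Rfx6 and 0.23 for Neurod1. The panel genes themselves had a median log2 fold change of 0.36 in that contrast, with none called, and the median over the 9 factors was 0.35. Their part in the differences was not tested.

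In colon the values with an unadjusted p under 0.05 were those of Insm1 and Nkx2-2, both lower after VSG. Insm1 held 145, 269, 306, 359 and 373 CPM in S_al and 95.7, 202 and 237 CPM in VSG, with a difference of -0.59 (interval -1.07 to -0.11, unadjusted p = 0.016, edgeR adjusted p = 0.78). Nkx2-2 held 44.2, 54.9, 60.4, 90.1 and 102 CPM in S_al and 33.5, 51.5 and 62.3 CPM in VSG, with a difference of -0.49 (interval -0.96 to -0.014, unadjusted p = 0.044, adjusted p = 0.78). The groups overlapped for both.

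In colon all 9 estimates of VSG were below 0 against S_al, with a median of -0.41, and all 9 were below 0 against S_wm, with a median of -0.23. The medians over all genes were 0.0059 and 0.0027. The 16 secretory panel genes had medians of -0.38 and -0.19 in these contrasts, with none called, and their sum had a median of 48141 CPM in VSG, 67011 CPM in S_al and 46270 CPM in S_wm colon. With panel scaling the differences to S_al were -0.27 for Insm1 and -0.15 for Nkx2-2. Colonocyte genes summed to medians of 723 CPM in S_al, 1465 CPM in S_wm and 1424 CPM in VSG colon. In the same order, goblet genes gave 8529, 8480 and 10332 CPM and enterocyte genes 447, 398 and 332 CPM. The ranges of the groups overlapped, and the part of these cells was not tested. Runs of 1 sign were not particular to colon. In duodenum 8 of the 9 estimates of VSG were above 0 against S_al and 9 against S_wm, the library of mouse 27 included. In ileum these counts were 7 and 6. For S_wm against S_al, 3 were above 0 in duodenum, 8 in ileum and 3 in colon. The factors vary together within a region, so 9 estimates of 1 sign are not 9 separate observations.

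The joint test of interaction asked whether a surgery effect differed between regions. The lowest unadjusted p values were 0.059 for Neurod1 and 0.060 for Rfx6, and the adjusted p was 1 for both (edgeR). The Neurog3 to Neurod1 ratio differed between no pair of surgery groups in any region: over 9 exact permutation tests the lowest p was 0.45, for VSG against S_wm in colon, with a difference of -0.77 ± 1.01 SE. Surgery group within a region accounted for 0.951% (Isl1) to 14.5% (Insm1) of the total variance of log2 CPM. Of the variance left after region, it accounted for 3.76% (Neurog3) to 21.1% (Neurod1). Group means take up some variance even where surgery has no effect, and no such share over all genes is given.

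Relatives of the 9 in the same protein families were mostly silent. Of 29 such genes, 12 passed the filter on low counts, and 17 did not, among them Neurog1, Neurog2, Neurod4 and Insm2. For ileum against duodenum 2 were higher and 1 lower, for colon against duodenum 5 were higher and 4 lower, and for colon against ileum 4 were higher and 3 lower, against the shares of all genes given above. The median log2 fold changes were -0.049, 0.12 and -0.12.

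Neurod2, the nearest relative of Neurod1 that was detected, fell with it, to -1.73 in ileum and -3.31 in colon against duodenum on the log2 scale (515, 124 and 38 reads over the 3 regions). Pax1 held 99 reads in duodenum, 194 in ileum and 8 in colon. Foxa1, the more abundant relative of Foxa2, was higher in colon than in ileum by 0.64 (edgeR adjusted p = 4.5e-06), and Rfx2 by 0.71. Pax7 was higher in colon than in duodenum by 1.05, and Nkx2-4 higher in ileum than in duodenum by 0.70.

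Of 20 other factors of the secretory and endocrine lineages, 19 were tested. For ileum against duodenum 3 were higher and 8 lower, for colon against duodenum 4 were higher and 11 lower, and for colon against ileum 5 were higher and 8 lower. Pdx1, the duodenal and pancreatic homeobox factor, fell by 5.87 in colon against duodenum, and Nkx6-3 went from 918 reads in duodenum to 4 in ileum and 8 in colon. Gfi1 and Atoh1, secretory factors that goblet and Paneth cells also use, were higher in ileum than in duodenum by 2.06 and 1.81, and Gfi1 was 3.799 and Scrt1 3.81 higher in colon than in duodenum. The goblet sum given above was also highest in colon. Against ileum, Hhex fell by 1.69 in colon.

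Of 9 genes of the Neurog3-positive progenitor stage, 0 were higher and 6 lower in ileum than in duodenum, 1 was higher and 4 lower in colon than in duodenum, and 3 were higher and 3 lower in colon than in ileum. Dll4, a Notch ligand, fell by 2.02 in colon against duodenum and by 1.35 against ileum, and Gadd45a fell by 1.82 in colon and by 1.30 in ileum against duodenum. Dll1 fell by 1.18 and Sox4 was 0.56 higher in colon than in ileum. Mfng fell by 0.88 from duodenum to ileum, and Cbfa2t3 was 0.41 higher in colon than in duodenum. In the 12 surgery contrasts, edgeR called 0 genes of these 3 lists.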

How the data were processed

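RNA from NeuroD1-positive cells of 3 gut regions was sequenced as stranded total RNA (SMARTer pico kit) in 48 libraries. Cells that were DAPI-positive, DRAQ5-negative or CD45-positive had been left out at the sort. The deposited values were whole-number counts per Ensembl gene, which the authors made by aligning single-end reads to GRCm38 with STAR 2.5.1 and which were not normalized. Whether counting used strand is not given in the sources used here. Every count column was mapped to a sample by its label, and 0 columns were left unmapped. A description of 2 libraries of mouse 12 exchanged ileum and colon, and the tissue label was used.

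Gene names came from GENCODE M21, which matched 53360 of 53465 identifiers. Genes were filtered with filterByExpr of edgeR 4.0.16 (R 4.3.3), which left 15126, and were scaled by TMM. The main test was the edgeR quasi-likelihood test on 9 groups of region and surgery, with Benjamini-Hochberg adjustment over all 15126 genes. DESeq2 1.42.0 and limma 3.58.1 (voom, with a random term for the mouse) were alternatives. CPM are counts per megaread after TMM scaling, computed here. The prior count for log2 CPM was 2. The Neurog3 to Neurod1 ratio used a pseudocount of 0.5, and permutations were run with scipy 1.17.1. The scripts were tested on simulated data.

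Libraries of 1 mouse share that animal. The ratio was compared between regions within mice, and the main edgeR fit had no mouse term. Among 46 same-mouse pairs, deviations from group means correlated with a median of 0.111 (range -0.070 to 0.391, 25 above 0.1), and the block with the mouse was run as an alternative. Of 105 pairs of libraries within a group, none agreed within sampling noise. Intervals cover the spread between these samples.

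All 9 factors are named, with up to 2 genes in each direction from each related list and the 3 genes most like each factor among 13939 genes with a mean of at least 1 CPM. The rule for the members used no measured value, but the members and lists were chosen with earlier results of these data known.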

Additional observations from a re-analysis of the deposited data

Results flagged for a closer look

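Of 90 groups of 5 or 6 libraries that were tested for a single distant value by Dixon's ratio, 7 were flagged, and chance flags about 1 in 20 groups. The duodenum library of S_wm mouse 27 gave 3 of them. Its Neurod1 level was 142 CPM, where the other S_wm duodenum libraries held 589 to 762 CPM, its Nkx2-2 level was 35.7 CPM, where the others held 137 to 158 CPM, and its Foxa2 level was 25.4 CPM, where the others held 52.2 to 55.7 CPM.

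VSG mouse 11 gave 2 flagged values. Insm1 was 95.7 CPM in its colon library, where the other VSG colon libraries held 186 to 237 CPM. Rfx6 was 109 CPM in its duodenum library, where the others held 148 to 169 CPM. In S_al duodenum, Foxa2 was 38.8 CPM in mouse 32, where the others held 54.3 to 58.0 CPM. The log2 ratio of Neurog3 to Neurod1 was -8.56 in the S_al duodenum library of mouse 12, where the others lay between -7.64 and -7.33.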

How the results depend on the processing

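With the library index as a covariate, a choice that changed 1 count of members by over 1.5 times, 1 of the 9 factors was called between ileum and duodenum, and 1 was called when the duodenum library of S_wm mouse 27 was also left out, an alternative chosen after seeing the data. In that index fit the ileum against duodenum values of Pax4 and Pax6 turned to 0.055 and 0.23, and all-gene calls fell from 5110 to 1713. The cause was not tested. The value of Insm1 for ileum against duodenum, which was not called, turned to -0.016 with no filter on low counts, to -0.071 without the library of mouse 27 and to between -0.069 and 0.079 when 1 mouse was left out.

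For the Neurog3 to Neurod1 ratio, colon against duodenum gave -1.33 with a pseudocount of 1 and -1.63 without the ileum and colon libraries of mouse 12, neither past the threshold, and -2.04 to -1.48 when 1 mouse was left out. Ileum against duodenum passed without pairing by mouse (-1.03) and ranged from -1.15 to -0.76 with 1 mouse left out. VSG against S_al in colon, not called, was -0.22 without the libraries of mouse 12. With 1 mouse left out, VSG against S_al ranged from -0.086 to 0.42 in duodenum, -0.64 to 0.21 in ileum and -0.50 to 0.97 in colon, VSG against S_wm from -0.69 to 0.33 in duodenum and -0.72 to 0.30 in ileum, and S_wm against S_al from -0.16 to 0.86 in duodenum and -0.41 to 0.47 in ileum. By Spearman's rho 9 colon pairs passed in place of 14, and with 1 mouse left out 2 to 13 duodenum pairs passed, with 2 when all libraries of mouse 27 were left out (10000 permutations), where 3 passed without its duodenum library alone (100000 permutations).

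With the mouse as a block, in edgeR and in limma voom, 8, 8 and 7 factors were called in the region contrasts, as without it. Over all genes these fits called 5360, 8540 and 7756 in edgeR and 5691, 8882 and 7781 in limma voom. In the surgery contrasts, for which the block was fitted in limma voom only, 0 factors were called, as without it. Reads limit Neurog3, of which the median library held 26.5 in duodenum, 6 in ileum and 2 in colon.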
